A study of Mus musculus with 6 samples.

Results

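The mouse genes named Zfp followed by a number alone encode zinc finger proteins. They were taken from the deposited count table by that pattern of their symbols, leaving out Zfp36, whose product binds messenger RNA through another kind of finger. The pattern found 169 genes among the 9295 of the table, and 166 of them held enough reads to be tested. The counts come from bone marrow of leukemic mice (acute myeloid leukemia), 6 libraries in all, 3 labelled Con (genotype PAPOLA flox/flox, the gene flanked by recombination sites) and 3 labelled KO (genotype PAPOLA KO). Papola encodes poly(A) polymerase alpha, the nuclear enzyme that adds the tail to newly cleaved messenger RNA, and the comparison asks what its loss does in this leukemia. No source used here gives the strain, the age, the recombinase or the way the leukemia was started. Whether the libraries of a group are from different animals is not stated either, so p-values may measure only technical spread.

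A C2H2 zinc finger is a short fold in which a pair of cysteines and a pair of histidines hold a zinc ion. Several fingers in a row read a stretch of DNA, and some fingers bind RNA or protein instead. Many of these proteins also carry a KRAB box, which recruits the corepressor Trim28 and through it the histone methyltransferase Setdb1, and silences retroelements and imprinted loci. Genes of the KRAB class arose by repeated local duplication and lie in clusters, while the others include transcription factors, chromatin adaptors and RNA-binding proteins with little in common besides the finger.

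The finger that gives the genes their name is shown for the members with some of the steepest changes, as the coding bases of the first finger in each, from GENCODE M21 transcripts. Capitals mark the codons of the paired cysteines and histidines. Zfp831 and Zfp740 are higher in KO, and Zfp462, Zfp811 and Zfp941 are lower.
Zfp831: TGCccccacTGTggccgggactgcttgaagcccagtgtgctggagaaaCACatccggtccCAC
Zfp740: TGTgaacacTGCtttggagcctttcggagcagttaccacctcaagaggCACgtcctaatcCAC
Zfp462: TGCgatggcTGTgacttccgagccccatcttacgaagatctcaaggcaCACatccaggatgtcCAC
Zfp811: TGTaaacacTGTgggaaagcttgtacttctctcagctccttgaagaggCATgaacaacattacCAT
Zfp941: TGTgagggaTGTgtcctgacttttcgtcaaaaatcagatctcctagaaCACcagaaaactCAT
The KRAB A box is shown for 3 members that are lower in KO, because members with this box were called lower in a larger share than those without it. Capitals mark the codons that match the 8 fixed residues searched for.
Zfp811: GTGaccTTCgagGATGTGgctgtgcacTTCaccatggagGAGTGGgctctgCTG
Zfp941: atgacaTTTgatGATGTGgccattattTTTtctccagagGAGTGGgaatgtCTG
Zfp719: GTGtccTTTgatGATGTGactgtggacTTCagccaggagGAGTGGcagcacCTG

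The libraries held 8875021 to 11436212 counts. Con replicates 2 and 3 were much closer to each other than any other pair of a group. Over 168 members their counts differed by no more than counting noise (chi-square per degree of freedom 1.1, p = 0.185), but over 8300 genes they differed by more (1.68, p = 2.81e-293), and the other pairs gave 17.7 to 23.7 over all genes. They were kept as 2 samples, and the leading counts are also given with them summed. Papola itself was not lower in KO, with 3751, 3779 and 3642 counts in Con and 2928, 2929 and 2440 in KO (log2 fold change 0.22, SE 0.08, adjusted p = 0.0291, or -0.13 with library size only). Counts over the deleted exons were not analysed here, so directions rest on the labels. The groups also differed in cell markers. The 10 late neutrophil genes took 0.271% to 0.278% of counts in Con and 14.6% to 16.8% in KO. The 9 measured of 10 erythroid genes took 0.00345% to 0.00597% and 1.25% to 1.84%, and 6 macrophage genes 2.18% to 3.14% and 0.0236% to 0.04%. Of 6 B cell precursor genes 3 were in the table, at 5.33e-05% to 0.000122% and 0.00463% to 0.0134%, and 6 T and NK cell genes took 0.0405% to 0.0599% and 0.00602% to 0.00878%. The T and NK sum fell with Gzmb (-5.41) and Cd28 (-4.37), while Cd3e (6.29), Cd3d (5.18), Cd4 (7.37) and Klrb1c (6.03) rose. None of these genes was at 0 in every library. The leukemia and progenitor list had Kit, Flt3 and Hoxa9 in the table, of 5 genes, at 0.00894% to 0.00936% in Con and 0.00885% to 0.0145% in KO, of which Flt3 rose (2.97) and Kit (-0.44) and Hoxa9 (-0.64) fell. The part of these shifts in the results on zinc finger genes was not tested. In bulk samples fewer cells of a type and less RNA per cell cannot be told apart.

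More numbered zinc finger genes were lower than higher in the libraries labelled KO. Of the 166 tested, 86 fell and 39 rose at an adjusted p of 0.05 (edgeR's quasi-likelihood test with Benjamini-Hochberg adjustment over all 8358 genes tested), and 41 did not pass. Among all genes tested 42.4% fell and 39.6% rose, against 51.8% and 23.5% of the members. A change in either direction was called for 82% of all genes. The median log2 fold change, KO less Con, was -0.41 over the members and -0.06 over all genes. At least 2-fold changes were called for 41 of the 166 members downward and 14 upward. Of the 8358 genes tested, 1990 (23.8%) and 1906 (22.8%) had them. The downward share of the members was thus close to that of all genes, and the upward share was below it. The members that fell ranged from -6.45 to -0.27, with a median of -0.97, and those that rose ranged from 0.23 to 3.54, with a median of 0.63. In 131 of the 166 (78.9%) the values of the groups did not overlap, compared with 84.5% of all genes. With Con replicates 2 and 3 summed, 82 members fell and 34 rose. The shares of all genes in that fit are not given here.

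**Figure D1:**
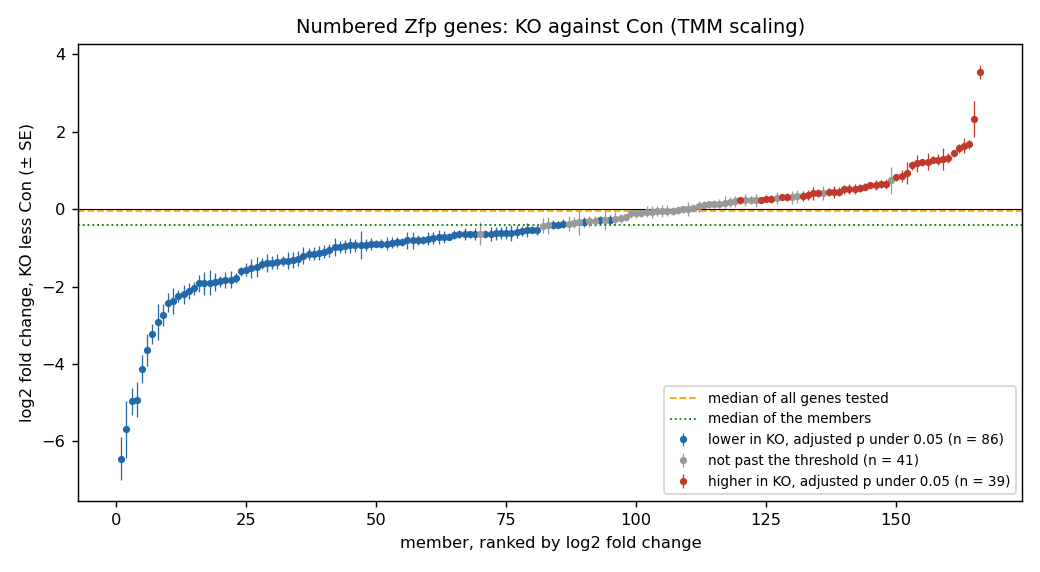
Log2 fold change (KO less Con, with its standard error) of each of the 166 tested numbered Zfp genes, ranked from lowest to highest and coloured by call. The 86 members called lower reach -6.45, the 39 called higher reach 3.54, and the median of the members (-0.41) lies under that of all genes tested (-0.06).

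Together the 169 members took 0.53%, 0.522% and 0.513% of counts in the Con libraries, listed here and below by replicate number, and 0.387%, 0.373% and 0.384% in the KO libraries. Each KO library was below every Con library. After TMM scaling, which sets libraries on a common scale from the genes in the middle of the distribution, the summed level was 4535, 4695 and 4617 counts-per-million (CPM) in Con and 4413, 4141 and 4391 CPM in KO. The KO libraries were again the lower ones, by a smaller margin.

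The scaling decided the direction of 29 members and left that of 137 unchanged over 5 scalings. TMM factors were 1.111 to 1.17 in Con and 0.8759 to 0.9003 in KO, libraries in which the 10 most abundant genes held 11.07% to 12.95% and 17.36% to 19.17% of counts. With library size only, 111 members fell and 20 rose (53.6% and 29.8% of all genes), and the members' median was -0.77 against -0.41 for all genes. Upper-quartile factors gave 94 lower and 30 higher (45.2% and 37.2% of all genes), and RLE factors, the kind DESeq2 uses, gave 82 lower and 41 higher (40.6% and 40.9%). TMMwsp factors gave 85 lower and 40 higher, where 3476 and 3357 of all 8358 genes fell and rose. The members' median lay 0.35 below that of all genes under each of the 5 scalings, and 103 of the 166 members (62%) were below it, since a scaling shifts all genes almost alike. A call of lower held under all 5 scalings for 82 members and a call of higher for 20, and no member was called in opposite directions. The matching counts over all genes are not given here. The 29 members whose sign turned had TMM log2 fold changes of -0.05 to 0.34, and 7 of them were called higher after TMM scaling. These 7 were Zfp984, Zfp91, Zfp68, Zfp346, Zfp638, Zfp281 and Zfp949, named after their values were seen. None of the 7 passed the threshold with library size only.

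**Figure D2:**
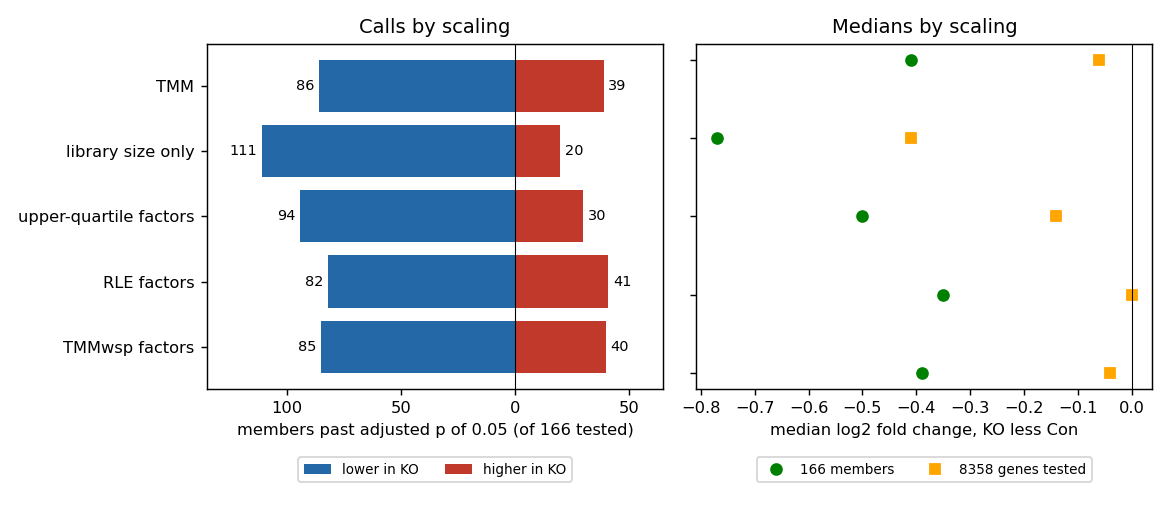
Left, number of members past an adjusted p of 0.05 in each direction (bars, of 166 tested) under 5 scalings; right, median log2 fold change (KO less Con) of the members and of all 8358 genes tested under the same scalings. Calls range from 82 lower and 41 higher with RLE factors to 111 lower and 20 higher with library size only, while the distance between both medians stays at 0.35.

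Several members that were nearly lost from the KO libraries were measured at low counts. Zfp941, a KRAB protein, had 53, 64 and 60 counts in Con and 1, 0 and 0 counts in KO. Its level was 113-fold lower in KO, with a 95% counting interval of 19.9 to 4470. Zfp365, which has no C2H2 finger by the pattern used here, had 95, 52 and 40 counts in Con and 2, 0 and 0 counts in KO, 59.5-fold lower with an interval of 16.2 to 495. In both genes all reads but a few came from Con, and these intervals cover counting error only.

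Zfp462, Zfp469 and Zfp827 were also among the steepest falls taken by the naming rule. Zfp462, a protein of many fingers that is tied to heterochromatin, was at 12.3, 23.4 and 19 CPM in Con and at 0.584, 0.617 and 0.515 CPM in KO. The Con values spread by nearly as much as their lowest level, and every KO value was far under all of them. The log2 fold change was -4.97 (SE 0.36, adjusted p = 1.04e-06). Zfp469, known from connective tissue and the cornea, was at 8.48, 11.4 and 10.8 CPM in Con and at 0.701, 0.247 and 0 CPM in KO (-4.92, SE 0.46). Zfp827, an adaptor that brings the NuRD complex to telomeres, was at 7.35, 8.57 and 8.4 CPM in Con and at 0.818, 1.11 and 0.643 CPM in KO (-3.22, SE 0.26). The naming rule took steep changes only where the groups did not overlap.

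Zfp609 and Zfp704 fell from higher levels. Zfp609, which works with the cohesin loader Nipbl, was at 117, 106 and 102 CPM in Con and at 32.1, 26.2 and 36.5 CPM in KO (-1.78, SE 0.12, adjusted p = 8.64e-07). The lowest Con value was well above the highest KO value. Zfp704 went from 53.37 ± 3.02 to 17.46 ± 2.4 CPM (SD, n = 3, log2 fold change -1.61, SE 0.12). The other members that the naming rule took for a steep fall were the KRAB genes Zfp811 (-4.13), Zfp819 (-3.64), Zfp248 (-2.74) and Zfp267 (-2.24), and Zfp27 (-2.42), in which the KRAB pattern was not found. Their levels in Con were between 2.96 and 19.1 CPM in every library.

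The members that rose were led by Zfp831, a gene at a low level in Con. Zfp831 was at 2.58, 2.51 and 2.32 CPM in Con and at 31.3, 22.8 and 32.6 CPM in KO. The Con values were tight, and the lowest KO value was several times higher than any of them (3.54, SE 0.19, adjusted p = 1.65e-07). Zfp740 carried more reads. It was at 77.4, 66.8 and 69.4 CPM in Con and at 227, 189 and 264 CPM in KO (1.67, SE 0.12, adjusted p = 1.4e-06).

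Zfp524, Zfp414 and Zfp367 rose with little spread within each group. Zfp524 was at 11.8, 11.9 and 12.3 CPM in Con and at 36.6, 33.7 and 37.2 CPM in KO (1.57, SE 0.11, adjusted p = 7.07e-07). Zfp414 was at 23.8, 22.3 and 23 CPM in Con and at 65.6, 66 and 55.5 CPM in KO (1.44, SE 0.10). Zfp367 was at 32.5, 32.4 and 31.3 CPM in Con and at 70.5, 83.5 and 78.5 CPM in KO (1.27, SE 0.09). Groups that do not overlap were a condition of the naming rule for the steepest genes. Zfp821 and Zfp276 rose by 1.28 and 1.31. The spread was wider for Zfp488, a regulator of oligodendrocyte maturation, at 63.3, 76.4 and 112 CPM in KO against 22.7, 29.1 and 28.6 CPM in Con (1.64, SE 0.20). Zfp467, which steers bone marrow stromal precursors between fat and bone, rose from 4.36 to 10.8 CPM on average (1.30, SE 0.29) and Zfp697 by 1.23. The 10 risers that the rule took kept their sign with library size only, at 0.88 to 3.18.

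**Figure D3:**
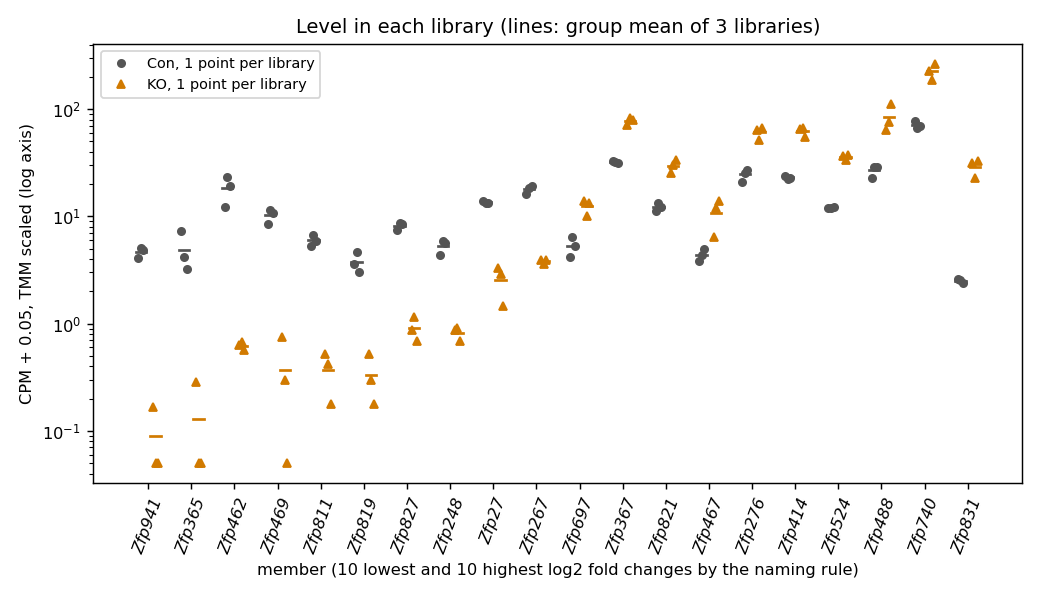
Level in each library of the 10 members with the lowest and the 10 with the highest log2 fold change among those called, with an average log2 CPM of at least 1 and without overlap (CPM after TMM scaling plus 0.05, log axis; circles Con, triangles KO, lines the mean of 3 libraries). The groups lie apart by the rule of choice, by most in Zfp941 and Zfp365 on the left and in Zfp831 on the right.

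Levels of different genes were compared per kilobase of the transcript with the longest coding sequence, and the order of the members differed between groups. In Con the highest were Zfp991 (53.5 ± 2.94 CPM per kilobase, SD, n = 3), Zfp106 (44.6 ± 1.21) and Zfp330 (41.4 ± 1.1), followed at a distance by Zfp91 (29.5 ± 0.481). In KO the highest were Zfp740 (58.4 ± 9.56), Zfp414 (52.1 ± 4.98) and Zfp384 (42.1 ± 2.75), and the first and second of these did not differ beyond their spread. The median member was at 5.71 CPM per kilobase in Con and 4.15 in KO. The proteins of Zfp991 and Zfp992 are 99% identical, so reads may be split between them and their single levels (log2 fold changes -1.06 and -0.98) are uncertain. The same holds for Zfp455 and Zfp456 (90% identical). Counts that were not whole in some library, which split reads can give, were found for 39 members. Without them 68 of 127 members fell and 28 rose (53.5% and 22%, against 42.4% and 39.6% of all genes).

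Members with roles in RNA, ribosomes or protein turnover were called in each direction about as often as all genes after TMM scaling. Of 12 listed, 7 were in the table, and 3 fell, 3 rose (42.9% each, against 42.4% and 39.6% of all genes) and 1 did not pass. Library size only gave 3 lower and 0 higher (median -0.28), where 53.6% and 29.8% of all genes fell and rose. Zfp106, an RNA-binding protein needed by motor neurons, had the most reads of all members, and was at 415, 407 and 393 CPM in Con and at 220, 208 and 227 CPM in KO (-0.89, SE 0.08, adjusted p = 3.58e-06). Its values did not overlap. Zfp318, which enables the alternative RNA processing that yields IgD, fell from 28.93 ± 1.3 to 13.06 ± 2.84 CPM (-1.15, SE 0.16), and Zfp593, a factor of large ribosomal subunit assembly, fell from 18.73 ± 1.73 to 10.25 ± 0.72 CPM (-0.87, SE 0.14). The ubiquitin ligase gene Zfp91 (0.24), the double-stranded RNA binder Zfp346 (0.27) and Zfp638, which silences unintegrated retroviral DNA (0.31), rose after TMM scaling only slightly and were at -0.12, -0.09 and -0.05 with library size only. The call of Zfp91 was also lost with upper-quartile factors (adjusted p = 0.1), with Con replicates 2 and 3 summed (0.0626) and without Con replicate 3 (0.0633). That of Zfp346 was lost with upper-quartile factors (adjusted p = 0.116), with Con replicates 2 and 3 summed (0.0775) and without Con replicate 2, Con replicate 3 or KO replicate 1 (0.0627 to 0.0874).

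Transcription and chromatin regulators outside the KRAB class were called in each direction about as often as all genes. Of 28 listed, 17 were in the table, and 7 fell, 7 rose (41.2% each, against 42.4% and 39.6% of all genes) and 3 did not pass, with a median of -0.03. With library size only the median was -0.39, and 10 fell and 4 rose, where 53.6% and 29.8% of all genes did. Besides Zfp462, Zfp827 and Zfp609, those that fell were Zfp219 (-0.85), Zfp64, an activator of the MLL gene in leukemia cells (-0.85, SE 0.14), Zfp639 (-0.71) and Zfp143. Zfp143, which binds promoters at the sequence searched for below, was at 48.9, 52.7 and 44.6 CPM in Con and at 46.4, 37.6 and 36.8 CPM in KO. KO replicate 1 lay within the range of Con. The difference (-0.27, SE 0.11, adjusted p = 0.0491) just passed the threshold, and the call was lost with RLE factors (adjusted p = 0.106), TMMwsp factors (0.0683), DESeq2 (0.15), a minimum count of 50 (0.0738) and Con replicates 2 and 3 summed (0.0827), and without any of Con replicates 1, 2 and 3 or KO replicates 2 and 3 (0.0525 to 0.202). Those that rose were Zfp740, Zfp467, Zfp652, a partner of ETO-family corepressors (0.65), Zfp384, which is rearranged in some B cell leukemias (0.62, SE 0.09), Zfp687 (0.52), Zfp516, a regulator of brown fat (0.51), and Zfp281, a factor of stem cell states (0.31). The calls of Zfp687, Zfp516 and Zfp281 were lost with library size only, where Zfp281 was at -0.05. The call of Zfp281 was also lost with upper-quartile factors (adjusted p = 0.0876) and without Con replicate 1, Con replicate 3, KO replicate 2 or KO replicate 3 (adjusted p = 0.082 to 0.0905).

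KRAB members with a known part in silencing were few. Of 6 listed, 3 were in the table. Zfp57, which protects imprinted methylation, was at 2.73, 2.12 and 2.96 CPM in Con and at 0.584, 0.493 and 0.386 CPM in KO (-2.38, SE 0.34, adjusted p = 0.000126), with no overlap. Zfp568, a repressor of a placental Igf2 transcript, fell from 25.88 ± 1.33 to 19.64 ± 0.572 CPM (-0.40, SE 0.11, adjusted p = 0.0058). Zfp809, which silences murine leukemia proviruses, was at 10.78 ± 1.6 CPM in Con and 9.072 ± 1.12 CPM in KO (-0.25, SE 0.17, adjusted p = 0.206) and did not pass. With library size only it was at -0.60 and passed (adjusted p = 0.00933). Of the 21 listed genes that work with KRAB proteins, 12 were in the table, and Trim28 was not among them. Of these 12, 7 fell and 2 rose (58.3% and 16.7%, against 42.4% and 39.6% of all genes), with a median of -0.33. Library size only gave 9 lower and 2 higher (median -0.69), where 53.6% and 29.8% of all genes fell and rose. Setdb1, the histone methyltransferase of the pathway, fell by 0.83 (SE 0.08), the chromatin remodeler gene Chd3 by 1.12 (SE 0.16) and Morc2a, a partner of the HUSH silencing complex, by 0.95 (SE 0.11). The Setdb1 cofactor gene Atf7ip rose by 0.86 (SE 0.11).

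Across all members, those with a KRAB box were called lower in a larger share. A coding sequence was found for 167 members, and 89 of them (53.3%) held the KRAB A box pattern, as did 2.37% of all tested genes with a coding sequence. Of 88 tested members with the pattern, 53 fell (60.2%) and 16 rose (18.2%), with a median log2 fold change of -0.64. Of 76 without it, 31 fell (40.8%) and 23 rose (30.3%), with a median of -0.11. Among all genes tested 42.4% fell and 39.6% rose. With library size only, 64 of 88 fell and 4 rose in the KRAB class (median -1.0), and 45 of 76 fell and 16 rose in the other (median -0.46). At least 2-fold rises were called for 13 of the 76 without the pattern and 1 of the 88 with it, against 22.8% of all genes. This 1 was Zfp619, at 3.41, 3.61 and 3.44 CPM in Con and at 9, 5.8 and 8.88 CPM in KO, named after its values were seen. KRAB members had fewer reads, with a median of 674 counts over all libraries against 1452. The difference between both classes was not tested. Among tested genes outside the numbered Zfp names, 106 held the KRAB pattern, of which 60 fell and 29 rose (median -0.47). Only 21 of these 106 also held a finger, so the pattern is a loose one, and 14 of the 21 fell and 2 rose (median -0.58).

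Members with more fingers had lower medians, a difference that was not tested. Members with 10 or more fingers had a median of -0.61 (51 of 90 fell, 16 rose), those with 5 to 9 fingers -0.27 (22 of 47 fell, 11 rose), and those with 4 or fewer 0.07 (11 of 27 fell, 12 rose). With library size only the last median was -0.28, against -0.41 for all genes. In the same order of classes 56.7%, 46.8% and 40.7% fell, against 42.4% of all genes. The shares that rose were 17.8%, 23.4% and 44.4%, against 39.6% of all genes. Without a KRAB pattern the medians were -0.21 for 5 or more fingers (21 of 51 fell, 12 rose) and 0.07 for fewer (10 of 25 fell, 11 rose). The shares that fell in these classes, 41.2% and 40%, were close to that of all genes. Of the 10 risers taken by the naming rule, Zfp831, Zfp740, Zfp488, Zfp414, Zfp821 and Zfp367 had 2 fingers each, while Zfp524 had 4, Zfp276 had 5, Zfp697 had 11 and Zfp467 had 12. The count of fingers per protein went from 0 in Zfp365, Zfp330, Zfp503 and Zfp750 to 36 in Zfp142, which was at 0.18 and did not pass.

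**Figure D4:**
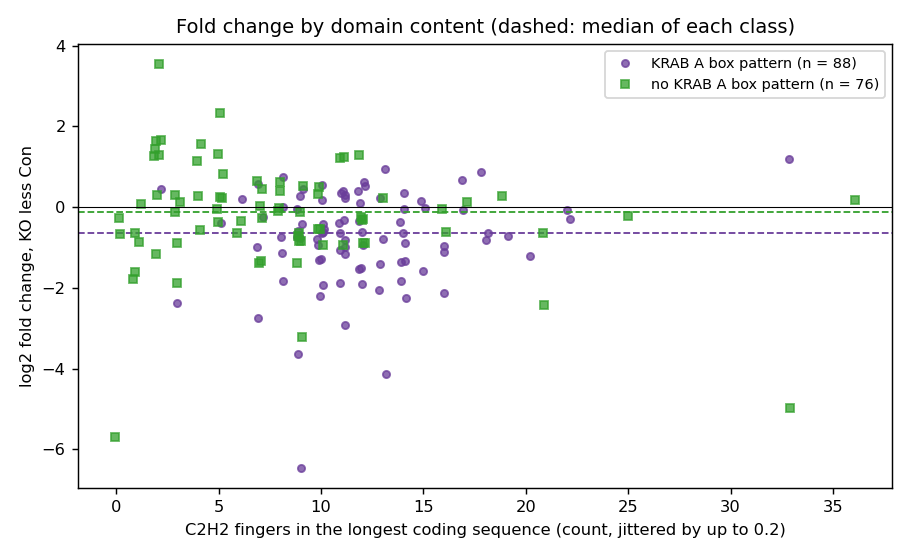
Log2 fold change (KO less Con) of the 164 tested members with a coding sequence against the number of C2H2 fingers, with members holding the KRAB A box pattern as circles (n = 88) and the others as squares (n = 76); dashed lines are the class medians of -0.64 and -0.11. The members above 1 are nearly all squares, and many of them have few fingers. At least 2-fold rises were called for 13 of the 76 squares, against 22.8% of all genes tested.

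Members that lie side by side in the genome did not always move together. In the order of protein-coding genes of the RefSeq table (assembly GRCm38.p6), 74 members formed 28 groups with at most 2 other genes between neighbours. Called members of opposite direction occurred in 8 of the 28 groups. Groups with fewer than 2 called members could not show this. Of the 8 groups with 3 or more members, 3 held calls in both directions. How often other neighbouring genes differ in direction was not tested. The largest group, Zfp84, Zfp940, Zfp27, Zfp383, Zfp74 and Zfp568, fell in all 6 members (-2.42 to -0.33). The group of Zfp455, Zfp458, Zfp595, Zfp456 and Zfp429, all KRAB genes, fell in 4 members while Zfp595 rose. Zfp595 was at 8.48, 7.47 and 6.88 CPM in Con and at 14.6, 12.6 and 14.2 CPM in KO (0.86, SE 0.15, adjusted p = 0.000515), whereas Zfp455 was at 6.21, 6.92 and 7.44 CPM in Con and at 2.1, 1.48 and 1.93 CPM in KO (-1.89, SE 0.23). Neither gene overlapped between groups. Both carried counts that were not whole, so reads may be shared with copies nearby. In the group of Zfp786, Zfp212, Zfp777 and Zfp467 the members went from -2.91 to 1.30. Zfp595, Zfp455 and the groups were chosen after their values were seen.

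**Figure D5:**
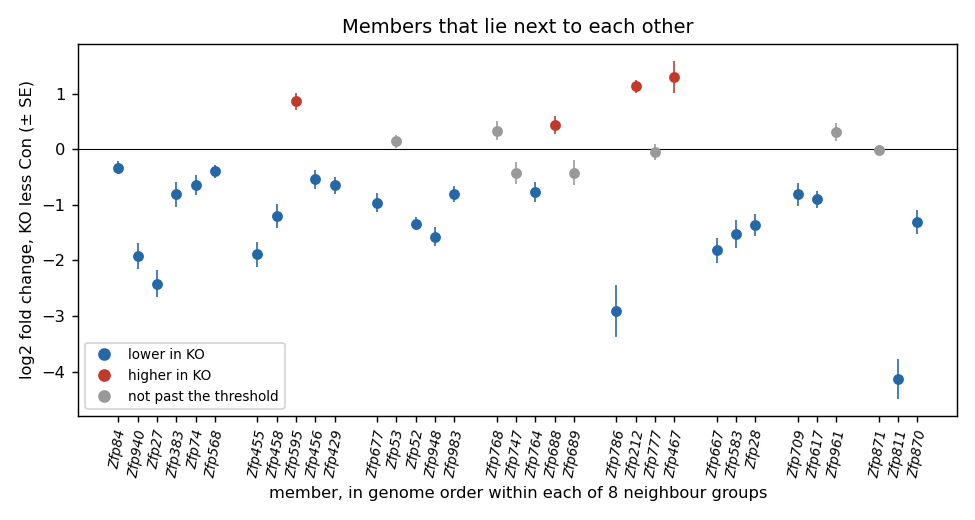
Log2 fold change (KO less Con, with its standard error) of the members in the 8 groups of 3 or more neighbours, in genome order and coloured by call. The first group of 6 lies wholly below 0, while Zfp595 stands at 0.86 among 4 neighbours that fell.

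A promoter sequence was at hand for 142 members, from 250 bases before to 50 after the start, and 3 motifs were searched on both strands. The first motif, ACTACA and TCCC spaced by 2 bases of any kind, is known as a binding sequence of Zfp143. It was found in the promoters of 26 of the 142 members (18.3%). The same letters occurred for 4.26% of the 6673 tested genes with a promoter and in 1.81% of all 32851 promoters. The promoters of Zfp455, Zfp458, Zfp595 and Zfp60 are shown because they hold the motif in members that moved in either direction; capitals mark the motif or its reverse complement, and coordinates and sequences are those of RefSeq on GRCm38.p6.
Zfp455 (chr13:67194416-67194495, plus strand): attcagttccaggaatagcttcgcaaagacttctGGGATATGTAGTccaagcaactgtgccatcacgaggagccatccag
Zfp458 (chr13:67269127-67269206, minus strand): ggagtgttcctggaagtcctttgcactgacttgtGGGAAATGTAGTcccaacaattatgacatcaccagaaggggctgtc
Zfp595 (chr13:67332566-67332645, minus strand): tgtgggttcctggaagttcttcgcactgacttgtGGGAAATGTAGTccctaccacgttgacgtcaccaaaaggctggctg
Zfp60 (chr7:27731310-27731389, plus strand): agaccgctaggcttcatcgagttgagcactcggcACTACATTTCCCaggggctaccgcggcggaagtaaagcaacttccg
Of 25 tested members with the motif, 21 fell and 1 rose (median -0.64), and 19 of them held the KRAB pattern. The 1 that rose was Zfp595, printed above. Of 116 tested members whose promoters lacked it, 49 fell and 33 rose (median -0.16). Among 259 other tested genes with the motif, 142 fell (54.8%) and 75 rose (29%), with a median of -0.30. All 5 members of the group around Zfp595 held the motif, and similar neighbours are not independent of each other. The other motifs were rarer. GGGANTTCC was found in 5 members (3.52%, against 2.74% of tested genes), which all fell. Of these 5, 4 held the KRAB pattern, and Zfp429 and Zfp456 also held the first motif. Among 178 other tested genes with GGGANTTCC, 86 fell (48.3%) and 61 rose (34.3%). TCTCG joined to CGAGA was found in 1 member (0.704%, against 0.974%), Zfp414, which rose. Among 64 other tested genes with it, 24 fell (37.5%) and 22 rose (34.4%). A match describes these letters only.

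In the other zinc finger families set beside the members, medians were below 0 as well, as was that of all genes (-0.06). Of 21 Zbtb genes, 7 fell and 7 rose (33.3% each, median -0.13). Of 11 tested Zscan and Zkscan genes 6 fell and 2 rose (54.5% and 18.2%, median -0.66). Of 9 Zc3h genes, whose fingers bind RNA, 5 fell and 1 rose (55.6% and 11.1%, median -0.30). Among 5 tested Zfp genes with a letter after the number 3 fell and 1 rose (60% and 20%, median -0.40). Among all genes 42.4% fell and 39.6% rose. The medians of these families with library size only were -0.48, -1.01, -0.65 and -0.75 in this order, against -0.41 for all genes. No difference between these families and the numbered genes was tested. The 3 members that held too few reads for a test were Zfp334, Zfp711 and Zfp750, with sums over the group of 22, 22 and 34 counts in Con and 5, 9 and 3 in KO.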

How the data were processed

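The authors deposited unscaled expected counts, 1 column for each library, per the file headers. Their aligner, counter and annotation: not given in the sources used here. GRCh38, a human build, is listed in the submitters' processing notes while the gene IDs are mouse, so no coordinates were taken from the files. Values were rounded to whole numbers. Of 9295 genes, 1449 (15.6%) held a value that was not whole. All 6 columns were matched to libraries by name, and 0 columns were unused.

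KO was compared with Con over the whole table with edgeR 4.0.16 in R 4.3.3 (TMM, filterByExpr by group, robust quasi-likelihood test, two-sided, no covariate, Benjamini-Hochberg over 8358 genes, threshold 0.05). CPM are counts over the TMM-scaled library total. SE is the log2 fold change over the square root of F. The fit was tested on simulated data. Depth puts a gene at 1 CPM at about 10 counts per library. Alternatives were limma-voom (limma 3.58.1), DESeq2 1.42.0, a fit that was not robust, 4 scalings, 2 filters, a replicate block, leaving out each library and summing Con replicates 2 and 3.

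Coding sequences were the longest per gene in GENCODE M21, matched by gene ID and translated. A finger was counted for C, 2 to 4 residues, C, 12 residues, H, 3 to 5 residues and H. The KRAB pattern allowed 3 of 8 fixed residues to differ. The naming rule took the 10 highest and 10 lowest fold changes (called, average log2 CPM of at least 1, no overlap), the 6 members with most reads, the 4 smallest p in each direction and the members of the role lists, 46 in all. Members named beyond it, such as Zfp719, Zfp330, Zfp786, Zfp458 and Zfp60, were chosen after their values were seen. The members and lists were chosen with earlier results of these data known. Same-numbered libraries did not deviate together (correlations -0.003, 0.026 and -0.001), so the numbers were not taken to pair samples.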

Additional observations from a re-analysis of the deposited data

How the results depend on the processing

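The count of members that fell stayed within 1.5 times its reported value of 86 under every alternative run, and so did the count that rose (39), except with library size only, which gave 20. The median of -0.41 was -0.77 with library size only, -0.50 with upper-quartile factors, -0.35 with RLE factors and with DESeq2, -0.44 with no filter, -0.36 with a minimum count of 50 and -0.53 for members with whole counts only, a restriction chosen after seeing the data. The last 3 test other sets of members (169, 153 and 127). Leaving out 1 library at a time gave 79 to 87 lower, 33 to 38 higher and medians of -0.46 to -0.40. The shares of all genes in these fits and in the replicate block are not given here. The replicate block gave 85 lower, 37 higher and a median of -0.40, with no call lost among the 46 named members. The labels do not say whether the numbers pair the samples.

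Signs turned for 8 of the 46 named members. With library size only Zfp91 was at -0.12, Zfp346 at -0.09, Zfp326 at -0.28, Zfp638 at -0.05, Zfp281 at -0.05 and Zfp644 at -0.32. With upper-quartile factors Zfp326 was at -0.02 and Zfp644 at -0.06. With RLE factors and with DESeq2 Zfp871 was at 0.04 and Zfp217 at 0.02. Zfp871 was at 0.01 with TMMwsp factors and with a minimum count of 50, and at 0.02 with Con replicates 2 and 3 summed. Leaving out 1 library at a time gave both signs for Zfp871 (-0.07 to 0.04), Zfp217 (-0.10 to 0.03), Zfp644 (-0.01 to 0.09) and Zfp326 (-0.04 to 0.23). Zfp871, Zfp217, Zfp326 and Zfp644 did not pass in the reported fit. Direction and call held for 33 of the 46 in every alternative that gave a value, with none for Zfp941, Zfp365, Zfp819 and Zfp57 at a minimum count of 50. Members under 1 CPM rest on about 10 counts or fewer per library, which limits their folds.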
